A study of Saccharomyces cerevisiae with 3 samples.

Results

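The 10 genes described here carry out or control the synthesis of chitin and of beta-1,3-glucan in the cell wall of Saccharomyces cerevisiae. They are the chitin synthase genes CHS1, CHS2 and CHS3, the chitin synthase III factors SKT5 and CHS7, and GFA1 of the hexosamine pathway. The glucan side consists of the synthase subunit genes FKS1 and GSC2, the glucanosyltransferase gene GAS1 and the glucanase gene BGL2. They were picked by gene symbol and not by a cutoff on measured values, but earlier results of these data were known by then. Each was found once among the 5792 gene features of the array. Cells of BY4742, an S288C-type laboratory haploid with the alpha mating type, had been biotin-labelled, grown in YPD and recovered on beads at the 4th, 7th and 11th generation. RNA of these older cells was labelled with Cy3 and hybridised together with Cy5-labelled RNA of 1st generation cells of the same strain, on 1 array per generation. How the 1st generation cells were recovered, and whether their RNA on the 3 arrays came from 1 preparation, is not given in the sources used here.

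The wall of budding yeast is built around a mesh of beta-1,3-glucan, to which beta-1,6-glucan, mannoproteins and a small amount of chitin are linked. Chitin is made from UDP-N-acetylglucosamine by separate chitin synthases with their own times and places, and most of it lies in the ring at the bud neck and in the septum, so that every division leaves a chitin-rich bud scar on the mother cell. Beta-1,3-glucan is made at the plasma membrane by a synthase with alternative catalytic subunits, of which FKS1 encodes the main one of vegetative growth and GSC2, also called FKS2, one that is known to be induced through calcineurin, on poor carbon sources and in sporulation.

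With 1 array per generation and no dye swap, the single generations could not be tested, no error can be given for a single ratio, and precision is limited by having so few arrays. A dye effect of a probe and an effect of generation cannot be told apart in a ratio against the 1st generation. A constant dye effect drops out of the difference between 2 arrays. The text therefore gives log2 ratios of older over 1st generation cells after loess normalisation within each of the 16 blocks of spots, and counts a gene as higher or lower when it differed at least 2-fold. Measures of spread come from other sources. The difference between the 7th and 4th generation ratios had an SD of 0.17 over 5550 features on the log2 scale, a value that holds real differences too. The 8 spots for ACT1 had log2 ratios with an SD of 0.18, 0.18 and 0.62 for older cells of 4, 7 and 11 generations. On the last array, 1 spot stood at -1.54 and the other 7 lay between -0.39 and 0.31, so that a single spot can be wrong by more than 2-fold, and each of the 10 genes rests on 1 spot per array. For each gene the 1st generation signal was also measured on all 3 arrays, which gives an SD over 3 arrays. That SD does not cover the signal of the older cells, which have 1 array per generation. Over features, the difference in 1st generation signal between 2 arrays had an SD of 0.27 to 0.28 on the log2 scale. All 10 genes were above the signal of the blank spots in both channels of every array. Raw signals are not comparable between channels. Their medians over gene features were 523, 495 and 590 in Cy3 and 177, 161 and 162 in Cy5 on the 3 arrays.

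The labels were set against genes that mark the strain. The 4 alpha-specific genes gave raw signals between 9.48 and 290 times the background limit, and the 6 a-specific genes between 0.865 and 7.00 times. LEU2, deleted in BY4742, was below the limit in all 6 channels. LYS2 was above it in 3 and URA3 in 5 of 6 channels, at most 1.41 times the limit, while HIS3 was well above it in all 6, and where its probe lies relative to the deletion is not known.

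None of the 10 genes was at least 2-fold higher or lower at the 4th or at the 7th generation. Among all features 2.17% were higher and 2.49% lower at the 4th generation, and 2.32% and 2.03% at the 7th. At the 11th generation GSC2 and CHS1 were at least 2-fold higher and CHS7 was at least 2-fold lower, against 5.75% of all features higher and 3.84% lower. The median log2 ratio of the 10 genes was 0.38, 0.44 and -0.013 at the 4th, 7th and 11th generation, and that of all features was 0.015, 0.0094 and 0.027. At the 4th and at the 7th generation 8 of the 10 genes were above 0, and at the 11th 5 were above and 5 below.

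**Figure D1:**
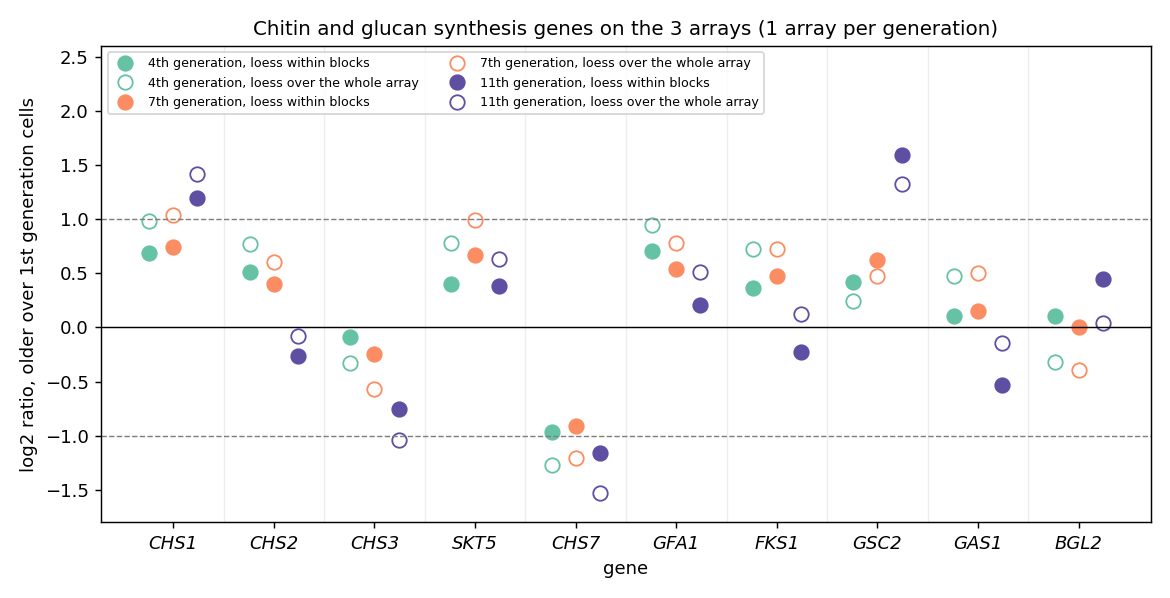
Log2 ratio of older over 1st generation cells (vertical axis) for each gene (horizontal axis) by generation of the older cells. Filled circles are values after loess within blocks and open circles after loess over the whole array; dashed lines mark 2-fold. GSC2 and CHS1 lie above the upper line and CHS7 below the lower line at the 11th generation in both.

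The clearest difference was in GSC2 (YGR032W). Its raw Cy3 signal was 1215, 1311 and 2953 at generations 4, 7 and 11, against raw Cy5 signals of 367, 325 and 383 for 1st generation cells on the same arrays. Among the Cy3 signals only that of the 11th generation stands far from the others. The log2 ratios were 0.42, 0.63 and 1.59, so that the transcript was 3.02-fold higher at the 11th generation than at the 1st, a ratio above those of 97.9% of features. The normalised log2 signal in the older cells was 9.62, 9.80 and 10.89, against a mean of 9.23 ± 0.064 (SD, n = 3 arrays) in the 1st generation. Its ratio at the 11th generation lay between 1.13 and 1.68 under all 6 ways of processing the arrays, and past 2-fold in 6 of 6.

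FKS1 (YLR342W) showed no such difference. Its raw Cy3 signals were 4945, 3867 and 2937 at the 4th, 7th and 11th generation, against 1325, 980 and 985 in Cy5 for the 1st. The log2 ratios were 0.36, 0.48 and -0.23, none of them 2-fold, and the normalised signal of the older cells was 11.46, 11.25 and 10.63, against 10.91 ± 0.17 (SD, n = 3 arrays) in 1st generation cells. The sign at the 11th generation depends on the processing, at 0.12 after loess over the whole array and 0.18 after median centring. The 2 synthase genes had like ratios on the first arrays, with GSC2 above FKS1 by 0.053 at the 4th and 0.15 at the 7th generation. At the 11th GSC2 exceeded FKS1 by 1.82 on the log2 scale, a 3.53-fold difference between the ratios of the 2 genes. After loess over the whole array these differences were -0.48, -0.25 and 1.20, and in the authors' deposited values -0.13, 0.071 and 1.43, so the gap at the 11th generation is present in each. GSC2 and FKS1 encode similar proteins, the probe sequences were not used here, and how far each probe takes up the other transcript was not tested.

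**Figure D2:**
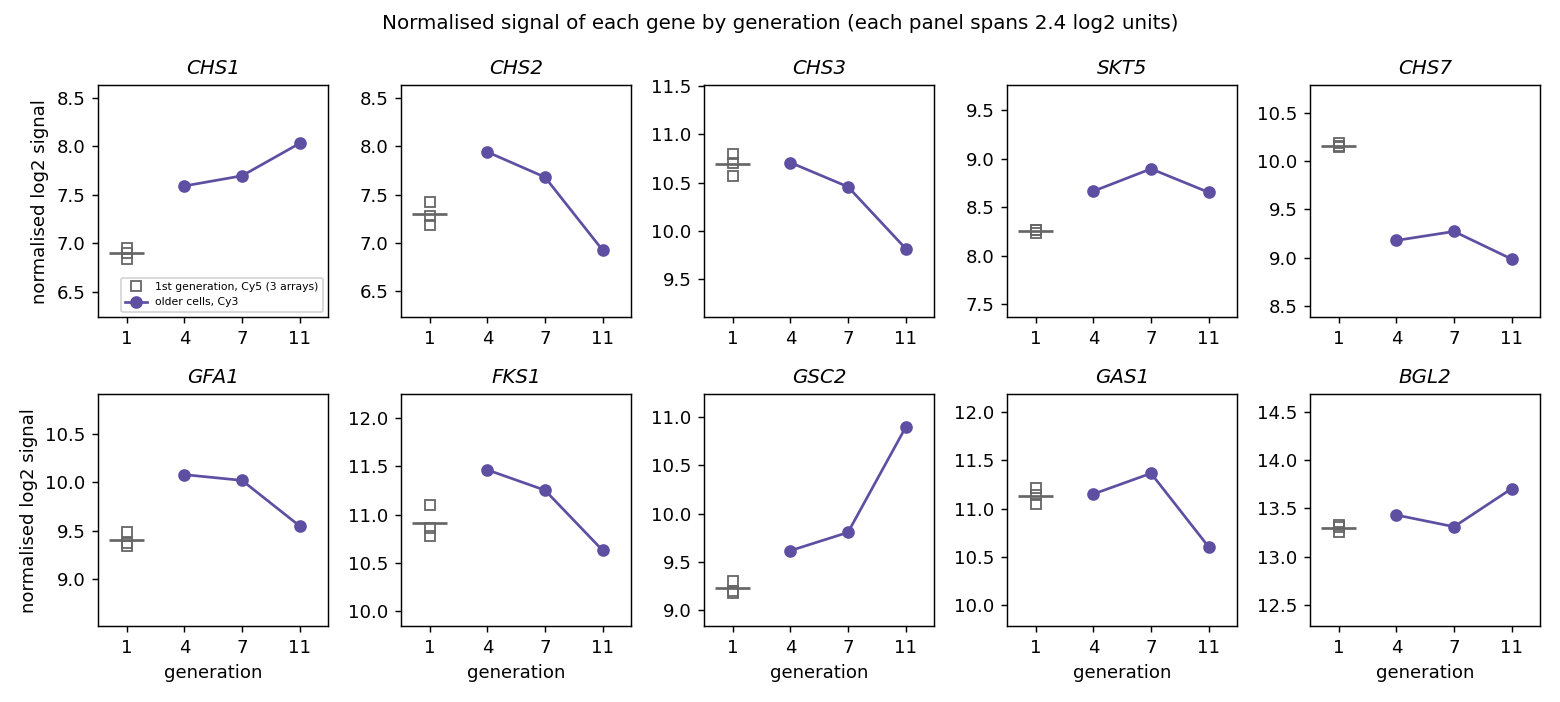
Normalised log2 signal (vertical axis, each panel 2.4 units tall) by generation (horizontal axis) for the 10 genes. Squares are 1st generation cells in Cy5 on the 3 arrays with their mean as a line, and circles older cells in Cy3, 1 array each; Within its own panel GSC2 is highest at the 11th generation, at 10.89, and levels are not comparable between panels.

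The 3 chitin synthase genes differed from each other. CHS1 encodes the enzyme that repairs the wall during separation of mother and daughter. Its raw Cy3 signals were 293, 310 and 485 at the 4th, 7th and 11th generation, against 45.8, 40.4 and 38.2 in Cy5 for the 1st. CHS1 was dim in both channels, below the median feature on every array, and its 1st generation signal was only 1.29 to 1.53 times the background limit. The log2 ratios of CHS1 (YNL192W) were 0.69, 0.74 and 1.19, the last a 2.29-fold difference. The size of these ratios depends on the processing. At the 11th generation the ratio of CHS1 was 2.63 when the blank mean was simply subtracted and 3.20 in the authors' deposited values. At the 4th and 7th it was 1.46 and 1.51 with that subtraction and 2.17 and 2.26 in the deposited values, thus past 2-fold on every array. At the 7th generation 5 of 6 settings put it past 2-fold. The sign was positive under all 6 settings in each generation.

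CHS2 (YBR038W) encodes the synthase of the primary septum at cytokinesis, and its transcript is known to peak in mitosis. Its raw signal was 394, 304 and 204 in Cy3 at generations 4, 7 and 11, against 74.2, 59.7 and 64.4 in Cy5 for the 1st. The older cells' signal is lower on each later array. Log2 ratios were 0.51, 0.40 and -0.26, and 1.32, 1.18 and 0.13 in the authors' deposited values, where the first 2 are past 2-fold. CHS2 too was dim in both channels, with a 1st generation signal of 2.17 to 2.31 times the background limit.

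CHS3 (YBR023C) encodes the catalytic subunit of chitin synthase III, which makes the chitin of the bud neck ring and of the lateral wall. Its raw signals were 2443, 1870 and 1371 in Cy3 at the 4th, 7th and 11th generation, against 1281, 1113 and 970 in Cy5. The ratio was below 0 on each array, with log2 values of -0.092, -0.25 and -0.75, the last 1.68-fold lower. That value became -1.04 after loess over the whole array and -1.40 in the authors' deposited values, both past 2-fold. CHS3 lies in an odd block of spots, and in both of these settings odd blocks had lower ratios than even ones. The normalised signal at the 11th generation was 9.82, against 10.69 ± 0.12 in 1st generation cells (SD, n = 3 arrays).

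The factors that act on chitin synthase III had ratios of opposite sign against the 1st generation on every array. CHS7 (YHR142W) encodes the endoplasmic reticulum protein needed for export of the Chs3 protein. Its raw signals were 853, 845 and 784 in Cy3 at generations 4, 7 and 11, against 778, 724 and 730 in Cy5. In normalised log2 signal that is 9.18, 9.27 and 8.99 in older cells, against 10.16 ± 0.022 in 1st generation cells (SD, n = 3 arrays). The ratio was thus low from the first array on, with log2 values of -0.96, -0.91 and -1.16, and 2.24-fold lower at the 11th generation. CHS7 was the gene of the 10 with the lowest ratio on every array, at the percentiles 2.72, 2.78 and 2.33 of all features. At the 11th generation it was past 2-fold under 6 of 6 settings, and at the 4th under 4 of 6. Since its ratio hardly differed between the arrays, a constant effect of dye or probe and a lower level in older cells cannot be told apart for CHS7.

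SKT5 (YBL061C), also called CHS4, encodes the activator of the Chs3 enzyme. Raw signals were 747, 819 and 784 in Cy3, against 142, 126 and 137 in Cy5. All 3 ratios were above 0, at 0.40, 0.67 and 0.38 on the log2 scale, and none reached 2-fold. At the 4th and 7th generation the authors' deposited values, 1.04 and 1.29, and the median-centred ones, 1.04 and 1.26, did. SKT5 exceeded CHS7 by 1.36, 1.58 and 1.55 at the 4th, 7th and 11th generation, and CHS3 by 0.49, 0.91 and 1.13. These gaps come from ratios against the 1st generation, so a dye or probe effect and an effect of generation cannot be told apart.

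GFA1 (YKL104C) encodes glutamine-fructose-6-phosphate amidotransferase, the first committed step towards UDP-N-acetylglucosamine. Its raw signals were 1927, 1730 and 1486 in Cy3 at generations 4, 7 and 11, against 364, 354 and 316 in Cy5. Log2 ratios were 0.71, 0.54 and 0.20, lower on each later array but above 0 on all. The 1.63-fold difference at the 4th generation was above that of 94.2% of features, and became 1.19 on the log2 scale after median centring, which also put the 7th generation past 2-fold at 1.03.

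Of the genes for glucan remodelling, GAS1 (YMR307W) encodes the GPI-anchored enzyme that elongates beta-1,3-glucan chains. It had raw Cy3 signals of 4112, 4321 and 2855, against 1285, 1341 and 1181 in Cy5. The log2 ratios were 0.11, 0.15 and -0.54. The first arrays were thus close to the 1st generation, and the 11th generation was 1.45-fold lower, a ratio of -0.15 after loess over the whole array. BGL2 (YGR282C) encodes an abundant endo-beta-1,3-glucanase of the wall. Its raw signals were 12828, 10314 and 13540 in Cy3, against 10235, 9025 and 8952 in Cy5. Ratios of BGL2 were 0.11, 0.0059 and 0.44, but -1.23, -1.44 and -1.29 in the authors' deposited values and -0.79, -0.95 and -0.76 after median centring. No direction can be given for BGL2 against the 1st generation.

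Levels across the 4 generations were ordered by the ratios with the 1st generation at 0. Neighbours closer than 0.17, the SD between the 7th and 4th generation arrays, are not told apart, and a wider gap is not thereby a tested difference. Gaps to the 1st generation also carry any dye effect. CHS1 and GSC2 ran from high to low as 11th, 7th, 4th and 1st generation. The 7th and 4th lay only 0.054 apart for CHS1 and 0.21 for GSC2. CHS3 ran in the opposite order, with gaps of 0.092, 0.15 and 0.50 from the 1st generation down. Only the gap to its 11th generation level was wider than 0.17. CHS2, FKS1 and GAS1 were lowest at the 11th generation, under the 1st by 0.26, 0.23 and 0.54. This depends on the processing for CHS2, at 0.13 above the 1st in the authors' deposited values. It does so for FKS1 too, at 0.12 above after loess over the whole array and 0.18 after median centring. For GFA1 and SKT5 the 1st generation was lowest, and for CHS7 it was highest by 0.91.

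The difference between the 11th and the 4th generation arrays, from which a constant dye or block effect drops out, divided the genes. GSC2 was 2.26-fold higher at the 11th generation than at the 4th, the only one of the 10 past 2-fold, against 2.66% of all features higher and 0.903% lower. Its log2 difference of 1.18 was 0.91 in the authors' deposited values and 0.97 after median centring, both short of 2-fold. On the lower side CHS2 was at -0.77, CHS3 at -0.66, GAS1 at -0.64, FKS1 at -0.59 and GFA1 at -0.50 on the log2 scale. These 5 lay between the percentiles 2.30 and 7.12 of all features, and each was below 0 under 6 of 6 settings. CHS2 passed 2-fold under 3 of them, at -1.19 in the authors' deposited values, -1.31 with plain subtraction and -1.04 after median centring. CHS1 stood at 0.50, but at 1.03 in the authors' deposited values and 1.17 with plain subtraction. BGL2 was at 0.34, and at -0.061 in the deposited values, CHS7 at -0.20 and SKT5 at -0.014. The median of the 10 was -0.35, and that of all features 0.014.

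**Figure D3:**
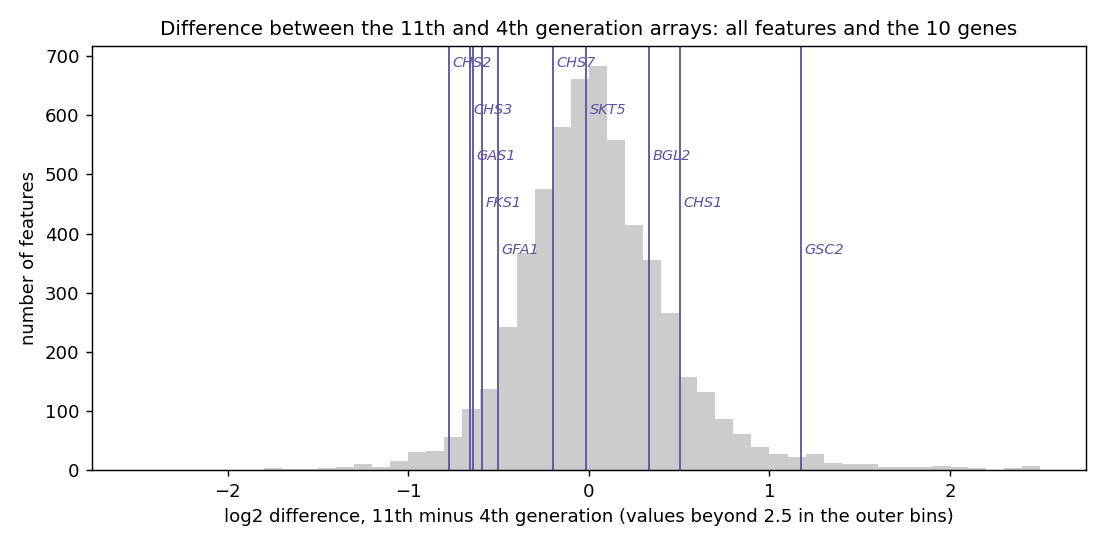
Distribution of the log2 difference between the 11th and 4th generation ratios (horizontal axis) over the 5645 features tested (vertical axis, number of features), with lines for the 10 genes. GSC2 stands at 1.18 on the right, and CHS2, CHS3, GAS1, FKS1 and GFA1 lie between -0.77 and -0.50 on the left.

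The same differences can be read in the channels. In the Cy3 channel of the older cells the normalised signal of GSC2 was 1.27 higher at the 11th generation than at the 4th, while the Cy5 signal of the 1st generation differed by 0.099 between the same arrays. For GAS1 these numbers were -0.55 in Cy3 and 0.096 in Cy5, and for GFA1 -0.53 and -0.027. For CHS2, CHS3 and FKS1 the Cy3 signal was lower by 1.01, 0.89 and 0.83, and the Cy5 signal was itself lower by 0.24, 0.23 and 0.24. Against the 7th generation the 11th gave no gene past 2-fold, where 1.93% of all features were higher and 0.558% lower. GSC2 was 1.95-fold higher there, and FKS1, GAS1 and CHS2 were at -0.71, -0.69 and -0.66. The 7th and 4th generation arrays, between which 0.162% of features were higher and 0.0901% lower, gave no gene past 2-fold either. Their largest difference was that of SKT5 at 0.27, and the median of the 10 was 0.047. The comparisons share the 1st generation as their reference, and those between arrays share the arrays.

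Other genes of wall synthesis were looked at through 12 lists of genes drawn up from general knowledge. Their counts at the 11th generation stand against the 5.75% of all features higher and 3.84% lower, and nothing is read from a list with 1 gene past 2-fold. Of 11 genes for chitin synthase trafficking and hexosamine synthesis, none was higher and 1 was lower at the 11th generation, with a median log2 ratio of -0.036. The Chs3 cargo adaptor genes BCH1 and BUD7 stood at -1.03 and 0.74. BCH1 was also just past 2-fold on the other arrays, at -1.02 and -1.04, but at -0.71 on the 11th generation array after loess over the whole array. Of 7 genes for chitin turnover and for linking chitin to glucan 1 was higher and none lower, with a median of -0.13. The chitin deacetylase gene CDA1 was 2.63-fold higher, and CRH1, whose product joins chitin to glucan, was 1.85-fold higher.

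Of 9 further genes for beta-1,3-glucan, none was past 2-fold in either direction on any array. The GAS1 relatives GAS3 and GAS5 had log2 ratios of -0.90 and -0.82 at the 11th generation, and the regulator RHO1 was at 0.32. Of 12 genes for beta-1,6-glucan 1 was higher, KNH1 at 2.27-fold, and SKN1 was at 0.89, with a median of 0.12. Of 15 glucanases and related wall enzymes 4 were lower and none higher, with a median of -0.47. The cell separation genes DSE4 and EGT2 were 4.81-fold and 4.78-fold lower at the 11th generation. At the 4th they were 2.94-fold and 1.91-fold lower.

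Genes that signal wall stress were set beside GSC2. Of 13 components of the wall integrity pathway none was past 2-fold at the 11th generation. The median was -0.059, and the mitogen-activated kinase gene SLT2 was at 0.90 and the sensor gene WSC3 at -0.72. Targets of Rlm1, the transcription factor under Slt2, had 4, 5 and 6 of 14 higher at the 4th, 7th and 11th generation and none lower. The medians were 0.60, 0.72 and 0.94, beside log2 ratios of 0.42, 0.63 and 1.59 for GSC2, and both were above 0 on every array. At the 11th generation all 14 were above 0. NCW2 was 6.69-fold and SRL3 5.17-fold higher. After loess over the whole array CIS3 and PIR3, 2 wall protein genes of that list, had ratios of -0.18 and -0.12. Of the 8 targets of calcineurin and its factor Crz1 on the array, 2, 3 and 4 were higher at the 4th, 7th and 11th generation and none lower, with medians of 0.69, 0.71 and 0.97. At the 11th CMK2 was 6.35-fold and YPS1 3.27-fold higher, and at the 4th they were 3.54-fold and 2.95-fold higher. Between the 11th and the 4th generation, where a constant dye effect drops out, 2 of 14 Rlm1 targets were higher and none lower. Of the 8 calcineurin targets none was past 2-fold there. Both lists had a median log2 difference of 0.35, beside 1.18 for GSC2. All features had 2.66% higher and 0.903% lower. YPS1 stands in both of these lists, and SLT2 in the Rlm1 list as well.

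Lists of genes for cycle phases and the pheromone response were counted in the same way. At the 11th generation G1/S genes had a median of -0.74, with 4 of 13 lower, among them CLN2 at 3.41-fold and POL1 at 3.06-fold lower. At the 4th and 7th generation 3 and 2 of the 13 were lower, against 2.49% and 2.03% of all features. The medians there were 0.10 and 0.032. CLN2 and POL1 were 2.58-fold and 2.41-fold lower at the 4th generation. Their log2 differences between the 11th and the 4th were -0.40 and -0.35. Genes of the G2/M cluster around CLB2, to which CHS2 also belongs, had a median log2 ratio of 0.41, 0.090 and -0.29 over 11 genes at the 4th, 7th and 11th generation. Their median difference between the 11th and the 4th generation was -0.41, beside -0.77 for CHS2. CLB1 stood out as 2.77-fold, 3.56-fold and 3.07-fold higher at the 4th, 7th and 11th generation. Its log2 difference between the 11th and the 4th was 0.15. For CLB1 too, a constant effect of dye or probe and a higher level in older cells cannot be told apart. BUD4 was at -0.71 at the 11th generation. M/G1 genes had a median of -0.53, with PCL2 2.61-fold and FAR1 2.54-fold lower and 3 of 9 lower in all. Of 9 measured pheromone-induced genes 3 were lower on each array, with medians of -0.81, -0.83 and -0.68 at the 4th, 7th and 11th generation. At the 11th AGA1 was 7.66-fold and FUS1 5.24-fold lower. CHS1 and GFA1, also known to respond to pheromone, had ratios above 0 on every array, and a link with the pheromone-induced genes was not tested. In bulk RNA a smaller share of cells of one type or phase and less RNA per cell cannot be told apart, and the part of these differences in the values of CHS2, FKS1, GAS1 and the other genes was not tested.

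**Figure D4:**
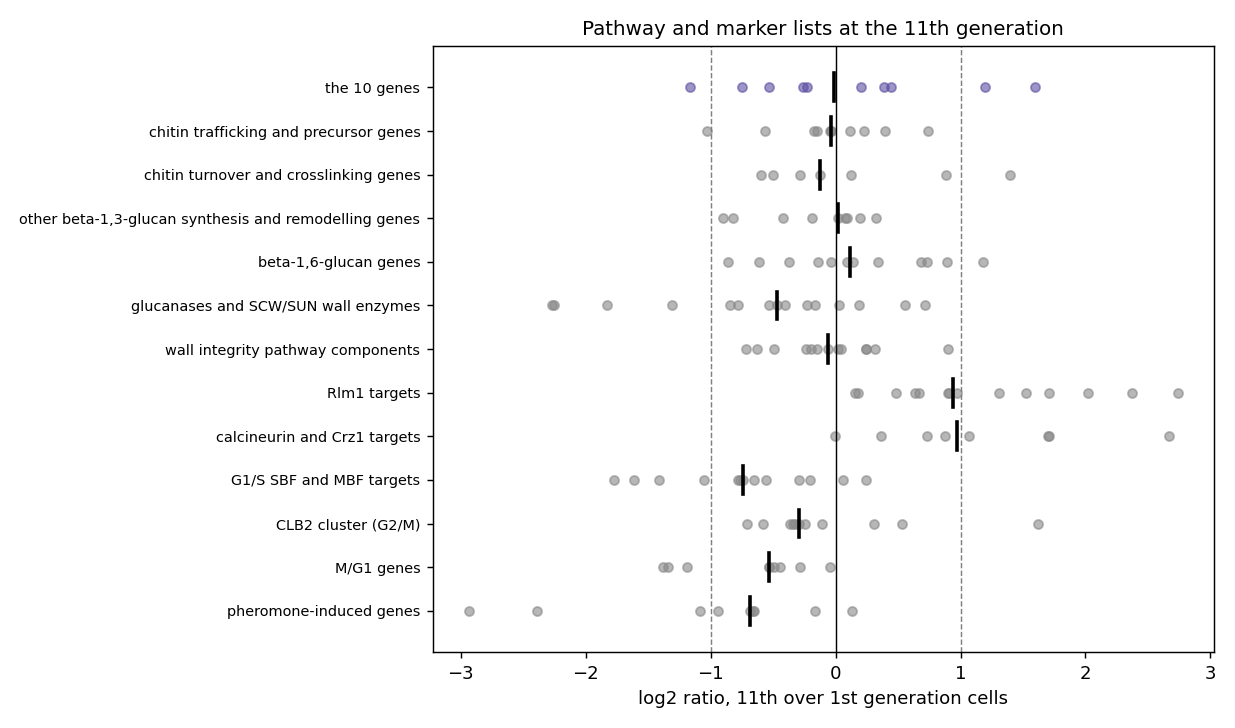
Log2 ratio of 11th over 1st generation cells (horizontal axis) for the genes of each list (rows), with the 10 genes on top; each dot is 1 gene, black bars are medians and dashed lines mark 2-fold. Rlm1 targets and calcineurin targets have medians of 0.94 and 0.97, and G1/S genes one of -0.74.

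For the 3 genes that passed 2-fold, the features with the most alike log2 ratios on the 3 arrays were looked up by Euclidean distance among 5515 single-gene features. Nearest to GSC2 were PUG1 at a distance of 0.068 and RCN2 at 0.077. Nearest to CHS1 were GPD1 at 0.045 and YBR287W at 0.050, and nearest to CHS7 were RBH2 at 0.063 and SGO1 at 0.078. With 3 values per feature such neighbours are a description of these arrays.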

How the data were processed

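The deposited array files hold the raw intensity of each spot in both channels, per the file headers. From each channel of an array the authors took off a constant, and they scaled Cy3 by a factor per array, per the file headers and the values. The authors deposited the log2 of the resulting Cy3 over Cy5 in the series table, equal to the array files within 5e-08. Here raw intensities of the 6272 spots were corrected by normexp with an offset of 50 and normalised by loess (span 0.3) within each block (limma 3.58.1, R 4.3.3). Control spots were given weight 0. Python 3.11.15 did the rest. Blocks are stretches of 392 spots in file order, each of which holds 20 blank spots. They were preferred because, after loess over the whole array, even blocks exceeded odd blocks by 0.45, 0.45 and 0.44. In the authors' deposited values even blocks exceeded odd ones by 0.81, 0.79 and 0.83, and ratios cited from those values carry that offset. CHS3, CHS7, GSC2 and BGL2 lie in odd blocks and the other members in even ones. Signal levels per channel were taken after Aquantile normalisation between arrays. A feature was tested when its raw signal in at least one channel was over a limit set from the 320 blank spots, their mean and 2 SD.

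On simulated arrays with known changes of 1.5 on the log2 scale, 95.0% of changed features of above-median signal, but 29.3% of dimmer ones, came out past 2-fold. The normexp offset shrinks the ratios of dim features. Systematic names paired 5729 of 5791 gene features with the R64 RefSeq gene table, the source of current symbols. The members, the gene lists and the tests were chosen with earlier results of these data known. Besides the 10 members, the text names the 2 genes of each list with the largest absolute ratio at the 11th generation and, for members past 2-fold, the 2 nearest features; RHO1, CIS3 and PIR3 were added after their values were seen. ENA1 of the calcineurin list was not matched. A further gene list and 1 gene of the G2/M list are not reported here. No p-value was computed and no test pooled over the 3 arrays was run. Alternatives were loess over the whole array, median centring, plain subtraction of the blank mean, no background correction, the authors' values, signal above background in both channels, and a 1.5-fold threshold.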

Additional observations from a re-analysis of the deposited data

Results flagged for a closer look

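Ratios of 3 genes had opposite signs at the 11th and the 4th generation, with 1 array on each side, so the difference was not tested. The log2 ratio of the 11th minus that of the 4th generation was -0.773 for CHS2, -0.592 for FKS1 and -0.642 for GAS1. The difference was below 0 under all 6 ways of processing for each of the 3. GAS1 was above 0 at the 4th and below 0 at the 11th generation under all 6. For the other two the opposite signs depend on the processing: FKS1 at the 11th generation was at 0.12 after loess over the whole array, and CHS2 at 0.13 in the authors' deposited values.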

How the results depend on the processing

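There are no replicate arrays, dim features such as CHS1 and CHS2 lie near background, and values against the 1st generation carry any dye or block effect. No paired analysis was possible because each generation has 1 array. GSC2 and CHS1 stayed at least 2-fold higher and CHS7 at least 2-fold lower at the 11th generation under 6 of 6 processing settings. Of 30 ratios and 30 differences between arrays, 28 and 0 moved by more than 0.17 after loess over the whole array, 24 and 9 in the deposited values, 21 and 5 after median centring, 7 and 4 with plain subtraction and 3 and 3 without background correction. In counts of the 10 genes, given as higher and lower, the 4th generation had 0 and 1 after loess over the whole array, 2 and 1 after median centring, 1 and 1 with plain subtraction, 3 and 2 in the deposited values and 2 and 1 at 1.5-fold. All features then had 10.5% higher and 9.41% lower in the deposited values and 8.94% and 8.96% at 1.5-fold. They had 4.19% and 3.64% after loess over the whole array, 6.87% and 3.80% after median centring and 5.69% and 5.73% with plain subtraction. The 7th generation had 1 and 1, 3 and 0, 1 and 0, 3 and 2, and 3 and 1 in the same order, and 1 and 0 without background correction. Shares of all features there were 4.56% and 3.56%, 7.401% and 4.17%, 5.07% and 5.51%, 10.67% and 9.89%, and 9.502% and 8.96%. Without background correction they were 2.98% and 2.84%. At the 11th generation the lower count was 3 in the authors' deposited values, 2 after loess over the whole array and 2 at 1.5-fold. Of all features 13.98%, 5.51% and 12.502% were lower under these settings. Between the 11th and 4th generation the counts were 1 and 1 in the authors' deposited values and 0 and 1 after median centring. They were 2 and 1 with plain subtraction and 1 and 4 at 1.5-fold. Shares of all features in that order were 5.69% and 2.46%, 3.24% and 1.13%, 6.02% and 2.80%, and 8.75% and 5.155%. Between the 11th and 7th the counts were 0 and 1 in the deposited values, 1 and 1 with plain subtraction and 1 and 3 at 1.5-fold. Shares of all features there were 4.21% and 1.56%, 5.27% and 1.58%, and 6.55% and 3.49%. The median of the 10 genes at the 4th generation was 0.60 after loess over the whole array and 0.65 after median centring, and at the 7th 0.70 after median centring. Of the 130 genes of the 12 lists on the array, 12 were higher and 15 lower at the 11th generation. These counts were 25 and 31 in the authors' deposited values, 23 higher after median centring and 25 and 33 at 1.5-fold. All features had 15.11% higher and 13.98% lower in the deposited values, 10.36% higher after median centring and 14.36% and 12.502% at 1.5-fold. Of all features 123 were higher and 141 lower at the 4th generation, 389 and 215 after median centring; at the 7th 129 and 113 became 412 and 232. The cause of these changes was not tested.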
